A study of Homo sapiens with 6 samples.

Results

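The vector line of CAL27 is described here on its own, from the 2 libraries of cells that carried an empty vector, called A and B, among 6 libraries in the series. CAL27 is an established cell line grown from a carcinoma of the tongue, and the labels name it oral adenosquamous. The cells were kept in DMEM with serum and the selection drug G418, and the labels class the cultures as stable lines of GFP-fused proteins. The other 4 libraries, from lines with the wild-type or the Q311E form of MB21D2, were used in no comparison. No gene was tested, because a single group has nothing to be tested against: levels, ranks and the difference between A and B are given. Whether A and B came from separate cultures is not stated in the labels, so their difference may be technical.

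Squamous epithelium is layered, and its dividing basal cells are built on the keratin pair KRT5 and KRT14 and on the transcription factor TP63. Keratins form filaments as pairs of a type I and a type II protein, and cells that leave the basal layer exchange the basal pair for others while they build desmosomes and, at the surface, a cross-linked cornified envelope. Squamous carcinomas of the mouth commonly keep the basal program, carry high levels of the growth factor receptor EGFR and release chemokines and proteases.

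Levels are FPKM, the authors' read counts scaled to gene length and library total. Ranks and ratios between genes therefore rest on the lengths used. For 22361 genes the values fitted the length of all annotated exons together. That length can exceed that of the transcripts present, and FPKM is then lower. The library totals, inferred here from FPKM and gene length, were 24147306 reads for A and 20645410 for B. The table listed 30178 genes, and 11082 of them (36.7%) reached 1 FPKM in both libraries. A level of 10 FPKM in both was reached by 4311 genes (14.3%), and 100 FPKM by 395 genes (1.31%). Among the 16300 genes annotated as protein-coding the shares were 61.8% at 1 FPKM and 25.9% at 10 FPKM. These shares are the background for the list counts below, in which a member counts when it reached the stated level in both libraries. Lists and members were chosen with earlier results of these data known. A share above or below the background therefore describes the chosen members and tests nothing. The median gene stood at 0.263 FPKM and the median protein-coding gene at 2.86 FPKM, and 5134 listed genes were at 0 in both libraries. No listed gene was at 0 in all 6 libraries of the series. Every share and median here is therefore of genes above 0 FPKM in at least 1 of the 6, not of all annotated genes.

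Over 11409 genes with a mean of at least 1 FPKM, log2((B + 1)/(A + 1)) had a median of -0.01 and an SD of 0.20 between the libraries, which was 0.31 with 0.1 in place of 1 and, over genes with a mean of at least 1 TPM, 0.43 as TPM. Of the 11409 genes 401 (3.52%) differed by more than 1.5-fold in FPKM. Across these genes Pearson's r of log2(FPKM + 1) was 0.992, a description of genes that are not independent replicates. Mitochondrially encoded genes took 5.24% of the FPKM total in A and 9.34% in B. The difference also moved with exon length: with genes in 4 classes of equal size by length, the median log2 difference, B over A, was 0.05 in the shortest class and -0.06 in the longest. Of 11 S100 genes at 10 FPKM or more in both libraries 9 were higher in B, against 45.2% of all 4311 genes at that level and 64.0% of the 1180 among them in the shortest class. The median exon length was 1025 bases for these S100 genes and 1978 bases for those of the shortest class. The part of transcript length and mitochondrial RNA in such differences was not tested.

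**Figure D1:**
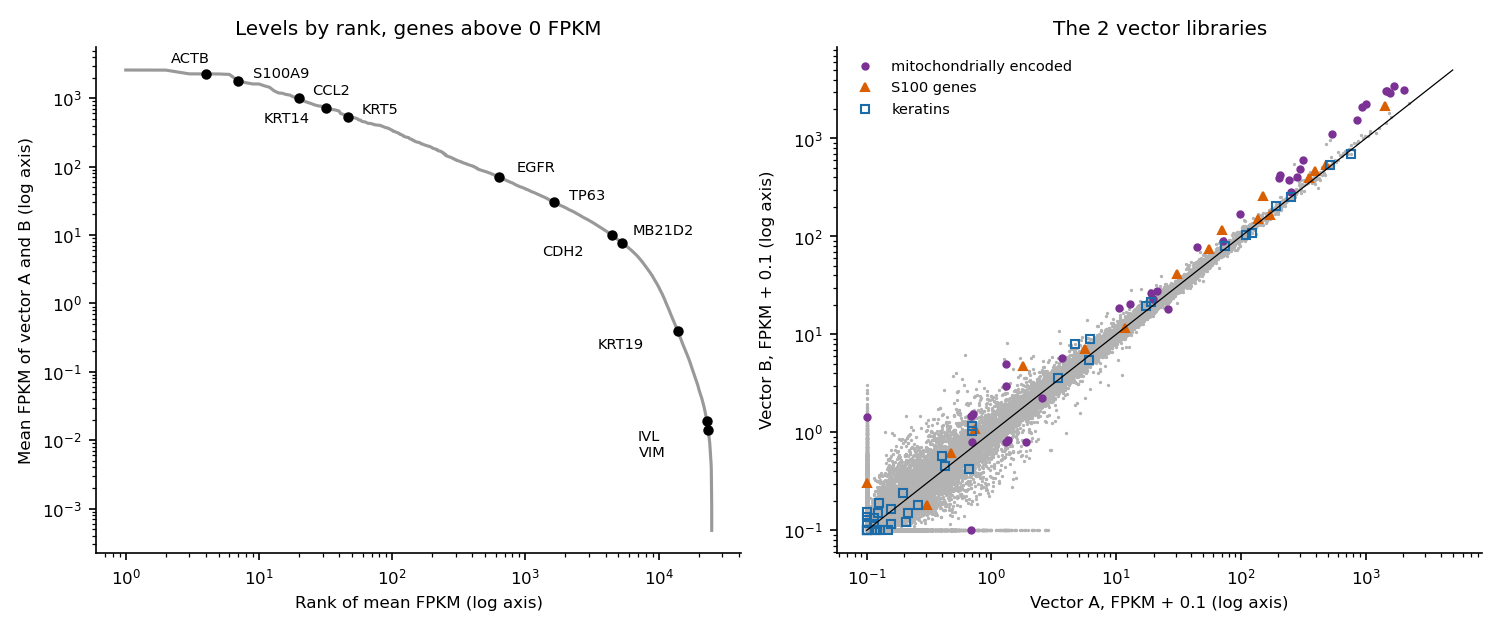
Left, mean FPKM over vector A and B against rank, both on log axes, with 12 genes marked, ACTB at rank 4 and VIM at rank 23572. Right, FPKM + 0.1 in vector A and vector B for every listed gene on log axes, with mitochondrially encoded genes, S100 genes and keratins marked and the line of equal levels. Keratins lie near the line, while most abundant mitochondrial and S100 genes lie above it.

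The 4 marker genes given for the line, 2 basal keratins, TP63 and EGFR, were all above the median protein-coding gene. KRT8, KRT18 and EPCAM, genes of simple epithelium, also exceeded TP63 in both libraries, and EGFR is not particular to squamous cells. KRT14 (ENSG00000186847, chromosome 17, 41582279 to 41586921, GENCODE 29 on GRCh38) had 762 and 697 FPKM in A and B, a mean of 729 ± 46.2 (SD, n = 2) and rank 32 of 30178. KRT5 (ENSG00000186081, chromosome 12, 52514575 to 52520687) had 522 and 537 FPKM and rank 47. TP63 (ENSG00000073282, chromosome 3, 189631416 to 189897279) had 30.2 and 29.8 FPKM and rank 1646. EGFR (ENSG00000146648, chromosome 7, 55019021 to 55211628) had 77.01 and 63.6 FPKM and rank 635. The structural keratins thus stood near the top of the table, and the regulator and the receptor lower but still in its upper part. Counting error was small beside these levels. EGFR rested on 23290 and 16434 reads, recovered at a fitted length. At that length the exact Poisson 95% intervals were 76.0 to 78.0 FPKM in A and 62.6 to 64.5 FPKM in B. They cover counting error only, not error in the fitted length.

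Keratins showed a basal and simple epithelial set with few suprabasal members. Of 42 keratin genes with a row, 13 reached 1 FPKM, 9 reached 10 FPKM and 6 reached 100 FPKM. The shares were 31.0% at 1 FPKM and 21.4% at 10 FPKM, against 61.8% and 25.9% of protein-coding genes. KRT14 was above its partner KRT5 in both libraries, with ratios of 1.46 in A and 1.30 in B. KRT15, a further basal keratin, was far lower at 6.09 and 8.80 FPKM.
Keratins of wounded and stressed epithelium were present at unequal levels. KRT6A, a type II keratin induced in wound edges and tumours, had 109 and 104 FPKM, and KRT17, its type I companion in such cells, had 75.1 and 79.3 FPKM. KRT16, the other usual partner of KRT6A, had 5.94 and 5.36 FPKM, so that KRT6A exceeded it 18.4-fold in A and 19.4-fold in B. KRT6B had 4.57 and 7.95 FPKM and KRT6C 0.114 and 0.0498 FPKM. These genes have near-identical copies, and reads shared between KRT6A, KRT6B and KRT6C, or between KRT14, KRT16, KRT17 and their pseudogenes, could have been split by the authors' counting, which leaves the lower members uncertain.

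The pair of simple, single-layered epithelium was also abundant. KRT8 had 254 and 251 FPKM and its partner KRT18 192 and 206 FPKM, a ratio of 1.32 in A and 1.22 in B. KRT7, a keratin of ducts and glands, had 17.3 and 19.5 FPKM. By contrast KRT19, which many glandular and embryonic epithelia carry beside KRT8, rested on 17 and 23 reads and 0.301 and 0.477 FPKM, and KRT20, a keratin of gut and urothelium, on 0 and 2 reads. Simple epithelial keratins were therefore present as the KRT8 and KRT18 pair with KRT7, and close to the median of all genes or below it for the remaining 2.

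Suprabasal keratins were mostly near 0. Of 13 with a row, 2 reached 1 FPKM (15.4%, against 61.8% of protein-coding genes), and the median was 0.0369 FPKM. KRT80, found at cell borders of many epithelia, had 123 and 109.6 FPKM, and KRT10, the type I keratin of differentiating epidermis, had 18.9 and 21.6 FPKM. The type II partner of KRT10, KRT1, had 0 and 0.0195 FPKM (0 and 1 reads). The pair of the lining mucosa of the mouth had 0.156 and 0.0831 FPKM (KRT13) and 0.0144 and 0.0337 FPKM (KRT4). Among 16 hair keratins with a row 1 reached 1 FPKM, KRT86 at 3.32 and 3.48 FPKM, and it too has close copies. Summed over genes, type I keratins came to 1061 FPKM in A and 1019 in B and type II keratins to 1035 and 1036, a ratio of 1.03 in A and 0.983 in B over 21 genes each. This sum was looked at after the values had been seen and rests on the gene lengths used: by recovered reads, not scaled to length, the ratio of means was 0.537, and without keratins whose length had to be fitted 0.303.

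Of 30 transcription factors of squamous and stratified epithelium 21 reached 1 FPKM, a share of 70.0% that is near the 61.8% of protein-coding genes, and the median was 4.01 FPKM. EHF, an ETS factor of lining epithelia, was the most abundant of them at 117 and 104 FPKM. SOX15, a SOX family factor, had 82.3 and 83.7 FPKM, while SOX2, a factor often amplified in squamous carcinoma, had 0.330 and 0.289 FPKM. PITX1, a homeobox factor of oral ectoderm, had 24.9 and 22.1 FPKM, and KLF5, a factor of dividing basal cells, had 16.3 and 16.2 FPKM. GRHL2, which maintains epithelial junction genes, had 14.01 and 13.004 FPKM, and TFAP2C, an AP-2 factor of ectoderm, had 11.8 and 11.02 FPKM. These leading factors had close values in A and B.

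Factors of the same list with roles in differentiation covered a wide range of levels. ELF3, an ETS factor of epithelial differentiation, had 6.82 and 8.70 FPKM. KLF4, which acts in the upper layers, had 7.74 and 6.56 FPKM. GRHL3, needed for the epidermal barrier, had 0.0736 and 0.0246 FPKM, and ZNF750, a target of TP63 that promotes differentiation, had 0.131 and 0.169 FPKM. MAF, a factor of late differentiation, was at 0 in both libraries. TP73, the relative of TP63, had 1.24 and 2.05 FPKM, so that TP63 exceeded it 24.3-fold in A and 14.6-fold in B. Of 16 factors that mark other epithelia, 7 reached 1 FPKM (43.8%, against 61.8% of protein-coding genes) and none 10 FPKM. Among them SOX9, a factor of ducts and progenitors, had 5.17 and 3.64 FPKM. FOXA1, FOXA2, GATA3, GATA6 and PAX8 lay between 1.01 and 2.15 FPKM in the libraries.

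Among 22 nuclear hormone receptors 13 reached 1 FPKM (59.1%, near the 61.8% of protein-coding genes). NR1H2, the sterol receptor LXR beta, was highest at 13.8 and 14.1 FPKM, with the fatty acid receptor PPARD at 11.9 and 12.5 FPKM and the vitamin D receptor VDR at 12.1 and 11.9 FPKM. RARG, the main retinoic acid receptor of skin, had 10.4 and 9.77 FPKM. ESR1, an oestrogen receptor, had 0.0389 and 0.0350 FPKM, and PGR, the progesterone receptor, was at 0 in both libraries.

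The host transcript of miR-205 was abundant. miR-205 is a microRNA of basal and squamous epithelium, and its 2 mature arms are shown because the table holds both the host gene and the hairpin. Capitals mark the seed, bases 2 to 8. The sequences are from RefSeq (GRCh38.p14, plus strand), at chr1:209432166-209432187 for the 5p arm and chr1:209432203-209432223 for the 3p arm.
hsa-miR-205-5p: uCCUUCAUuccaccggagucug
hsa-miR-205-3p: gAUUUCAGuggagugaaguuc
MIR205HG had 37.8 and 49.6 FPKM, from 3209 and 3605 reads, and rank 1097. The annotated hairpin gene MIR205, which lies within the span of MIR205HG (chromosome 1, 209428820 to 209432838), had 8.28 and 16.3 FPKM from 22 and 37 reads. Reads of a short hairpin and of its host cannot be told apart here, and standard libraries do not measure the mature arms. Other long noncoding transcripts at high level were SNHG29, a snoRNA host, at 75.8 and 78.5 FPKM, NORAD, a transcript that binds Pumilio proteins, at 46.1 and 45.6 FPKM, and UCA1, first described in urothelial carcinoma, at 33.4 and 39.6 FPKM. NEAT1, the scaffold of paraspeckles, had 22.7 and 39.8 FPKM and differed most between the libraries among these long transcripts.

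Late differentiation genes were few among the expressed ones. Of 29 genes of the cornified envelope and of keratinocyte differentiation with a row, 7 reached 1 FPKM (24.1%, below the 61.8% of protein-coding genes), and the median was 0.230 FPKM. CSTA, a protease inhibitor built into the envelope, led at 36.7 and 41.1 FPKM. The plakins PPL and EVPL, which link the envelope to keratins, had 20.7 and 20.7 FPKM (PPL) and 7.52 and 6.98 FPKM (EVPL). TGM2, the widely expressed transglutaminase, had 10.6 and 9.94 FPKM, while TGM1, the transglutaminase of the envelope, had 0.477 and 0.402 FPKM. Involucrin (IVL), an early envelope protein, rested on 2 and 0 reads, under the 3 reads (0.0577 FPKM in A and 0.0675 FPKM in B) taken as the limit of detection. Filaggrin (FLG), which bundles keratins in the outer layers, had 0.0552 and 0.0608 FPKM, and the small proline-rich SPRR3, an envelope protein of oral mucosa, had 0.0287 and 0 FPKM. The remaining 3 of the 7, ABCA12 and ALOXE3, which act in barrier lipids, and the calmodulin-like CALML3, lay between 1.05 and 1.21 FPKM. CNFN, an envelope protein, had 0.676 and 1.58 FPKM and CALML5, a calmodulin-like protein of differentiating keratinocytes, 1.16 and 0.677 FPKM, each past 1 FPKM in 1 library. Of the 29 genes 8 had a mean below 0.1 FPKM.

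Among cell adhesion genes, those of the hemidesmosome and laminin-332 were present throughout. All 9 reached 1 FPKM (against 61.8% of protein-coding genes) and 7 reached 10 FPKM (77.8%, against 25.9%), with a median of 53.2 FPKM. LAMB3, the beta chain of laminin-332, had 159 and 166 FPKM. LAMA3, the alpha chain, had 6.69 and 5.80 FPKM, so that LAMB3 exceeded it 23.7-fold in A and 28.7-fold in B, although the protein holds the chains in equal numbers. ITGB4 and ITGA6, the integrin that binds this laminin, were near each other at 57.7 and 57.9 FPKM (ITGB4) and 47.8 and 43.3 FPKM (ITGA6). COL17A1, the collagen of the hemidesmosome, had 54.4 and 52.1 FPKM. Of 23 integrins 10 reached 1 FPKM (43.5%, below the 61.8% of protein-coding genes). ITGA3, a laminin receptor chain, had 61.1 and 58.9 FPKM, ITGB1, the common beta chain, 49.5 and 42.1 FPKM, and ITGAV, of the receptors for vitronectin and latent TGF-beta, 24.6 and 20.7 FPKM. Its partner ITGB6, seen in wounds and carcinomas, had 11.1 and 11.04 FPKM.

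Desmosomes were represented by 10 of 12 genes at 1 FPKM (83.3%, against 61.8% of protein-coding genes). JUP, or plakoglobin, had 75.3 and 86.8 FPKM, PERP, a desmosomal membrane protein that TP63 controls, 62.3 and 64.5 FPKM, and PKP3, a plakophilin of all layers, 65.1 and 60.5 FPKM. DSG2, the desmoglein of simple and basal cells, had 38.1 and 32.6 FPKM and DSG3, that of basal squamous cells, 4.99 and 4.94 FPKM. The genes of the outermost layers, DSC1 and CDSN, had 0 and 0.0113 FPKM (DSC1) and 0 and 0 FPKM (CDSN). Adherens and tight junctions were represented by 16 of 18 genes (88.9%). CLDN1, the tight junction claudin of skin and mucosa, had 240.3 and 269 FPKM, and EPCAM, an adhesion protein of simple epithelium and carcinomas, 147 and 142 FPKM.

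Classic cadherins were measured at unequal levels. CDH1, or E-cadherin, had 61.6 and 58.4 FPKM, CDH3, or P-cadherin of basal cells, 48.5 and 49.7 FPKM, and CDH2, the N-cadherin of neural and mesenchymal cells, 10.5 and 9.58 FPKM. CDH1 exceeded CDH2 5.89-fold in A and 6.09-fold in B. Of 11 mesenchymal genes and regulators 5 reached 1 FPKM (45.5%, below the 61.8% of protein-coding genes). SNAI2, a repressor of E-cadherin found in basal keratinocytes too, had 14.2 and 11.9 FPKM, and TWIST1, a regulator of mesenchymal state, 3.07 and 3.98 FPKM. ZEB1 and ZEB2, repressors of epithelial genes, had 0.0144 and 0.0392 FPKM (ZEB1) and 0.0198 and 0.0213 FPKM (ZEB2). Vimentin (VIM), the mesenchymal filament protein, was listed at 0 and 0.0281 FPKM, from 0 and 3 reads at a fitted length. The mesenchymal list was thus mixed: S100A4, a calcium-binding protein of motile cells, led it at 30.7 and 41.4 FPKM, and vimentin closed it.

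Of 51 receptor tyrosine kinases with a row 21 reached 1 FPKM (41.2%, against 61.8% of protein-coding genes). A level of 10 FPKM was reached by 9 (17.6%, against 25.9%). AXL, the receptor of GAS6, was highest at 98.1 and 80.6 FPKM, followed by the ephrin receptor EPHA2 at 85.5 and 74.1 FPKM. EGFR came next in A and DDR1, a collagen receptor of epithelia, in B. DDR1 had 60.95 and 65.2 FPKM. MET, the receptor of hepatocyte growth factor, had 53.1 and 47.5 FPKM, while its ligand HGF had 0.00425 and 0 FPKM (1 and 0 reads). FGFR3, a fibroblast growth factor receptor of epithelia, had 14.99 and 19.5 FPKM. In this set AXL and EPHA2 stood above EGFR in both libraries.

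Within the ERBB family EGFR dominated. ERBB2, which has no ligand of its own, had 9.30 and 9.23 FPKM, ERBB3, whose kinase is nearly inactive, 4.94 and 4.54 FPKM, and ERBB4, the neuregulin receptor of heart and nerve, 0.00955 and 0.0112 FPKM. EGFR exceeded ERBB2 8.28-fold in A and 6.89-fold in B. Of 10 ligands 5 reached 1 FPKM. HBEGF, a ligand shed from the cell surface, had 12.3 and 12.5 FPKM, NRG1, a ligand of ERBB3 and ERBB4, 11.6 and 8.93 FPKM, and TGFA, a classic autocrine ligand of EGFR, 9.96 and 8.58 FPKM. AREG and EREG, both EGFR ligands, had 5.09 and 4.19 FPKM (AREG) and 2.71 and 2.57 FPKM (EREG), and EGF itself 0.712 and 0.808 FPKM. Receptor and several ligands were therefore transcribed in the same line, with the receptor above each ligand.

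Receptors of other families followed. TNFRSF12A, the receptor of TWEAK, had 171 and 152 FPKM and TNFRSF21, or DR6, 90.2 and 85.8 FPKM. Of 20 TNF receptor genes 13 reached 1 FPKM (65.0%, near the 61.8% of protein-coding genes). TNFRSF10B, a death receptor of TRAIL, had 31.8 and 30.6 FPKM. NGFR, the low-affinity neurotrophin receptor, had 12.2 and 16.3 FPKM. Of 33 cytokine receptor genes 19 reached 1 FPKM, also near that share (57.6%). IFNGR1, the ligand-binding chain of the interferon gamma receptor, had 40.6 and 44.4 FPKM. IL20RB, a chain of the receptors for the IL-20 family in keratinocytes, had 24.2 and 29.8 FPKM, and OSMR, the oncostatin M receptor, 21.01 and 21.3 FPKM. The chains of the lymphocyte IL-2 receptor, IL2RA, IL2RB and IL2RG, were at 0 in both libraries.

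TGF-beta, Notch and Wnt receptors were present in part, the leading ones at moderate levels. TGFBR2, which binds TGF-beta first, had 28.004 and 26.4 FPKM and TGFBR1, its signalling partner, 2.73 and 2.41 FPKM. Of 13 genes of the family 6 reached 1 FPKM (46.2%, below the 61.8% of protein-coding genes). NOTCH1, which drives keratinocytes out of the basal layer and is often mutated in this cancer, had 7.98 and 7.95 FPKM. Its ligands JAG1, at 13.7 and 13.4 FPKM, and DLL1, at 13.1 and 12.8 FPKM, were above it, and 6 of 8 Notch genes reached 1 FPKM (75.0%). LRP5, a Wnt co-receptor, had 38.3 and 38.96 FPKM. The frizzled receptors FZD6 and FZD2 had 31.4 and 29.5 FPKM (FZD6) and 32.4 and 28.2 FPKM (FZD2). Of 11 Wnt receptor genes 9 reached 1 FPKM (81.8%).

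**Figure D2:**
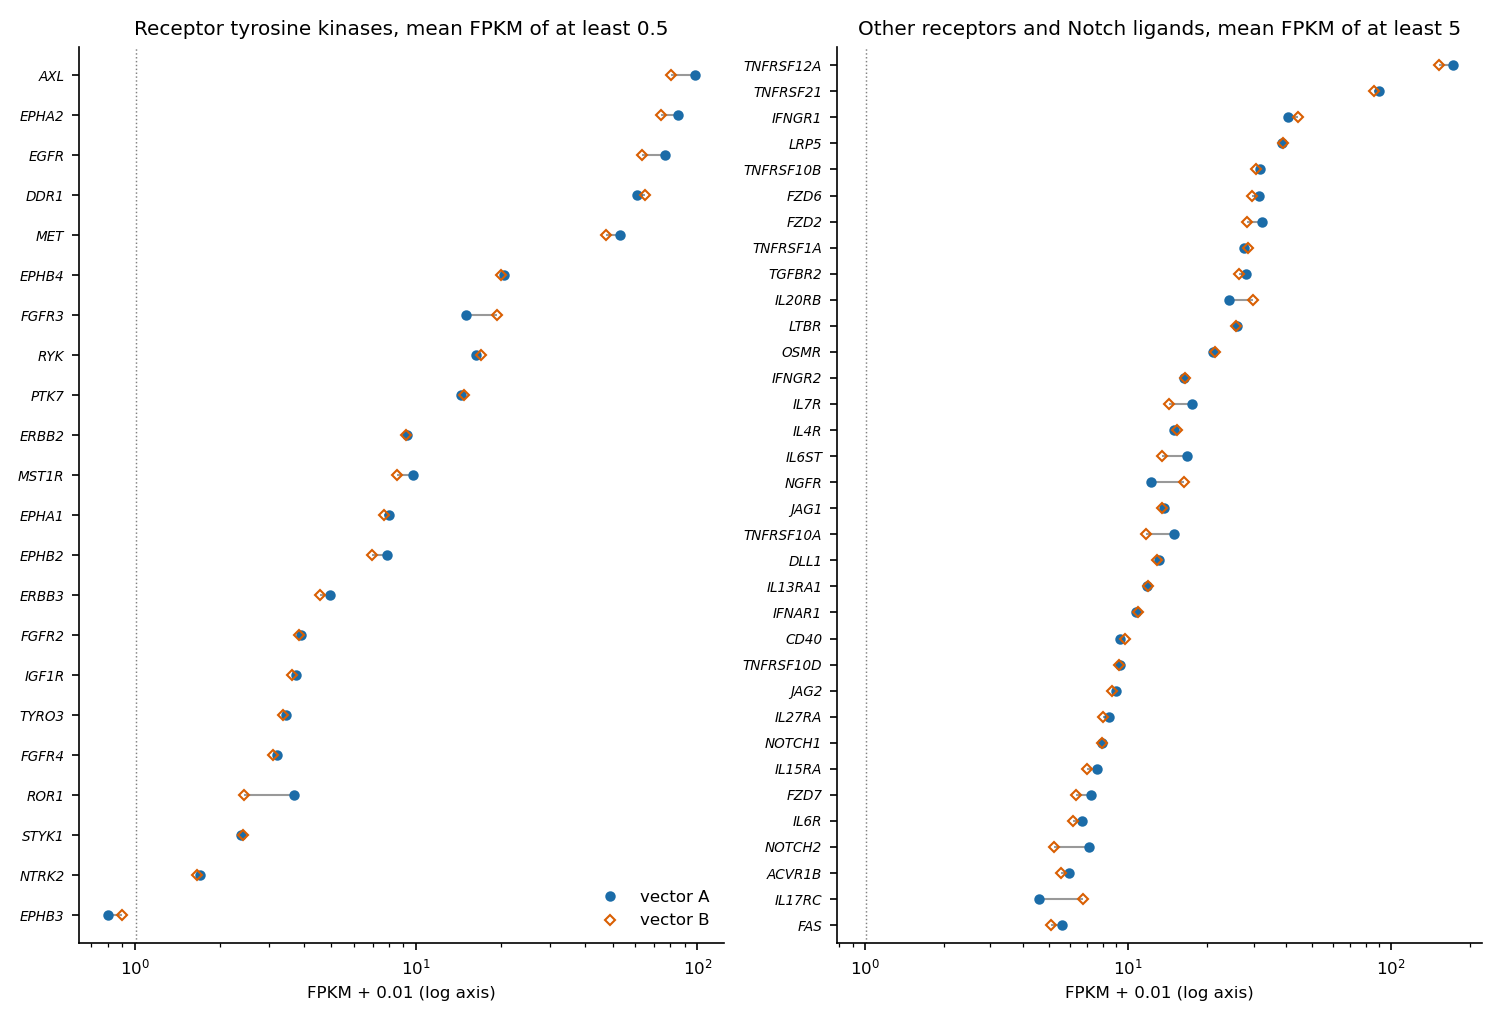
FPKM + 0.01 on log axes in vector A (filled circles) and vector B (open diamonds) for receptor tyrosine kinases with a mean of at least 0.5 FPKM (left) and for other receptors and Notch ligands with a mean of at least 5 FPKM (right). The dotted line marks 1 FPKM, and the upper end holds AXL at 98.1 and 80.6 FPKM on the left and TNFRSF12A at 171 and 152 FPKM on the right.

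Of 28 chosen surface proteins known from carcinomas 24 reached 1 FPKM (85.7%, against 61.8% of protein-coding genes) and 7 reached 100 FPKM. This share depends on the choice of members, made with earlier results known. CAV1, the coat protein of caveolae, had 465 and 443 FPKM, and SLC7A5, the large amino acid transporter, 429 and 379 FPKM. Its heavy chain SLC3A2 had 138 and 131 FPKM. F3, or tissue factor, which starts coagulation, had 395 and 378 FPKM and rank 85. CD44, a hyaluronan receptor of basal cells, had 95.8 and 83.4 FPKM. PDPN, or podoplanin of invading tumour edges, had 39.9 and 39.97 FPKM. CD274, the immune checkpoint ligand PD-L1, had 3.69 and 3.81 FPKM, below CD276 (B7-H3) at 22.7 and 21.9 FPKM.

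Chemokines and cytokines were led by a few very abundant transcripts. Of 23 chemokines with a row 11 reached 1 FPKM (47.8%, against 61.8% of protein-coding genes), 5 reached 10 FPKM and 3 reached 100 FPKM. CCL2, which attracts monocytes, had 912 and 1086 FPKM and rank 20 of all genes. CXCL1, a ligand of the neutrophil receptor CXCR2, had 469.9 and 535 FPKM and rank 55, and CXCL8, or interleukin 8, had 124 and 136 FPKM. CXCL16 had 61.5 and 57.3 FPKM, and CCL20, which attracts CCR6-bearing cells, 30.01 and 41.3 FPKM. CCL2 exceeded CXCL8 7.34-fold in A and 7.96-fold in B, and CXCL1 exceeded CXCL8 3.78-fold and 3.92-fold. The interferon-induced chemokines CXCL10 and CXCL11 had 3.03 and 2.60 FPKM (CXCL10) and 2.50 and 2.77 FPKM (CXCL11), and CXCL9 was at 0 in both libraries. CXCL14, an epithelial chemokine of healthy mucosa, had 0.377 and 0.441 FPKM.

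The proximal promoters of 3 of the 5 chemokines at 10 FPKM or more are shown. A promoter entry in RefSeq was at hand for 12817 protein-coding genes of the table, and CCL2 and CXCL16 were not among them. Each sequence is the 250 bases before the annotated start (GRCh38.p14, plus strand), at chr4:73869143-73869392 for CXCL1, chr4:73740319-73740568 for CXCL8 and chr2:227813592-227813841 for CCL20. Capitals mark matches, on either strand, to 4 motifs. They are TATAAA, the letters of the TATA box, then CCAAT, those of the CAAT box, then TGACTCA, which AP-1 binds, and GGNNTTTCC, which NF-kappaB binds.
CXCL1: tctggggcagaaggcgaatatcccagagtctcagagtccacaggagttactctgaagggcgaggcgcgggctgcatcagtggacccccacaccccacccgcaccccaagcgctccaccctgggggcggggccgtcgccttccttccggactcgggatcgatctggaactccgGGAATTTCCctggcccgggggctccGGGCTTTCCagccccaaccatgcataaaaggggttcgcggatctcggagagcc
CXCL8: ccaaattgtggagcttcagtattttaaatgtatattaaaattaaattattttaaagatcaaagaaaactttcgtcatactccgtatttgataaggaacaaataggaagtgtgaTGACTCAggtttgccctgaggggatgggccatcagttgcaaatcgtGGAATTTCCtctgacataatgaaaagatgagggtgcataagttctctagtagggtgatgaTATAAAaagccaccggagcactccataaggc
CCL20: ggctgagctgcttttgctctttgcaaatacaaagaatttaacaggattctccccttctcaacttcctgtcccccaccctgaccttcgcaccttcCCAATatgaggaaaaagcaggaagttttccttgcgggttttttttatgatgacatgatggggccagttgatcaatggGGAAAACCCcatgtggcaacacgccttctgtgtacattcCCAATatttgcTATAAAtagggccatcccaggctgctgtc
CXCL1 held GGNNTTTCC starting 78 and 53 bases before the start. CXCL8 held it 91 bases before the start, with TGACTCA at 137 and TATAAA at 31. CCL20 held GGNNTTTCC on the opposite strand at 79, CCAAT at 156 and 40, and TATAAA at 29. No base belonged to more than 1 motif. All 3 promoters thus held GGNNTTTCC, as did 2 of 9 chemokines with a mean below 1 FPKM and 5.86% of all 12817 promoters of that length. Among interleukins and cytokines it stood in 2 of 8 promoters at 10 FPKM or more and 1 of 15 below 1 FPKM. Among S100 genes it stood in 1 of 11 and 0 of 4. TATAAA stood in 7.38% of all promoters, CCAAT in 34.7% and TGACTCA in 3.01%. By level, TATAAA stood in 10.1% of 316 promoters of genes at a mean of 100 FPKM or more, 4.72% at 10 to 100 FPKM, 4.88% at 1 to 10 FPKM and 11.8% below 1 FPKM. CCAAT stood in 43.0% of promoters in the highest class and 32.8% in the lowest, and GGNNTTTCC in 7.59% and 5.32%. A match describes letters and does not show that a factor was bound.

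Interleukins and related cytokines reached 1 FPKM for 15 of 34 genes (44.1%, against 61.8% of protein-coding genes). IL1A, the interleukin 1 that keratinocytes store, had 114 and 128 FPKM, and IL1B, which is cleaved before release, 70.7 and 81.8 FPKM. IL1RN, the receptor antagonist of both, had 2.04 and 2.69 FPKM, so that IL1A exceeded it 55.8-fold in A and 47.7-fold in B. CSF2, or GM-CSF, had 117 and 109 FPKM, and CSF1, the macrophage growth factor, 33.2 and 35.1 FPKM. TNF had 22.9 and 26.2 FPKM, LIF, an IL-6 family cytokine, 25.1 and 21.96 FPKM, and IL6 11.6 and 11.5 FPKM. IFNB1, the interferon beta, was at 0 in both libraries, and TSLP, an epithelial alarm cytokine, had 0.0194 and 0.102 FPKM. Agonists of the IL-1 system were thus far above their antagonist at the RNA level.

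**Figure D3:**
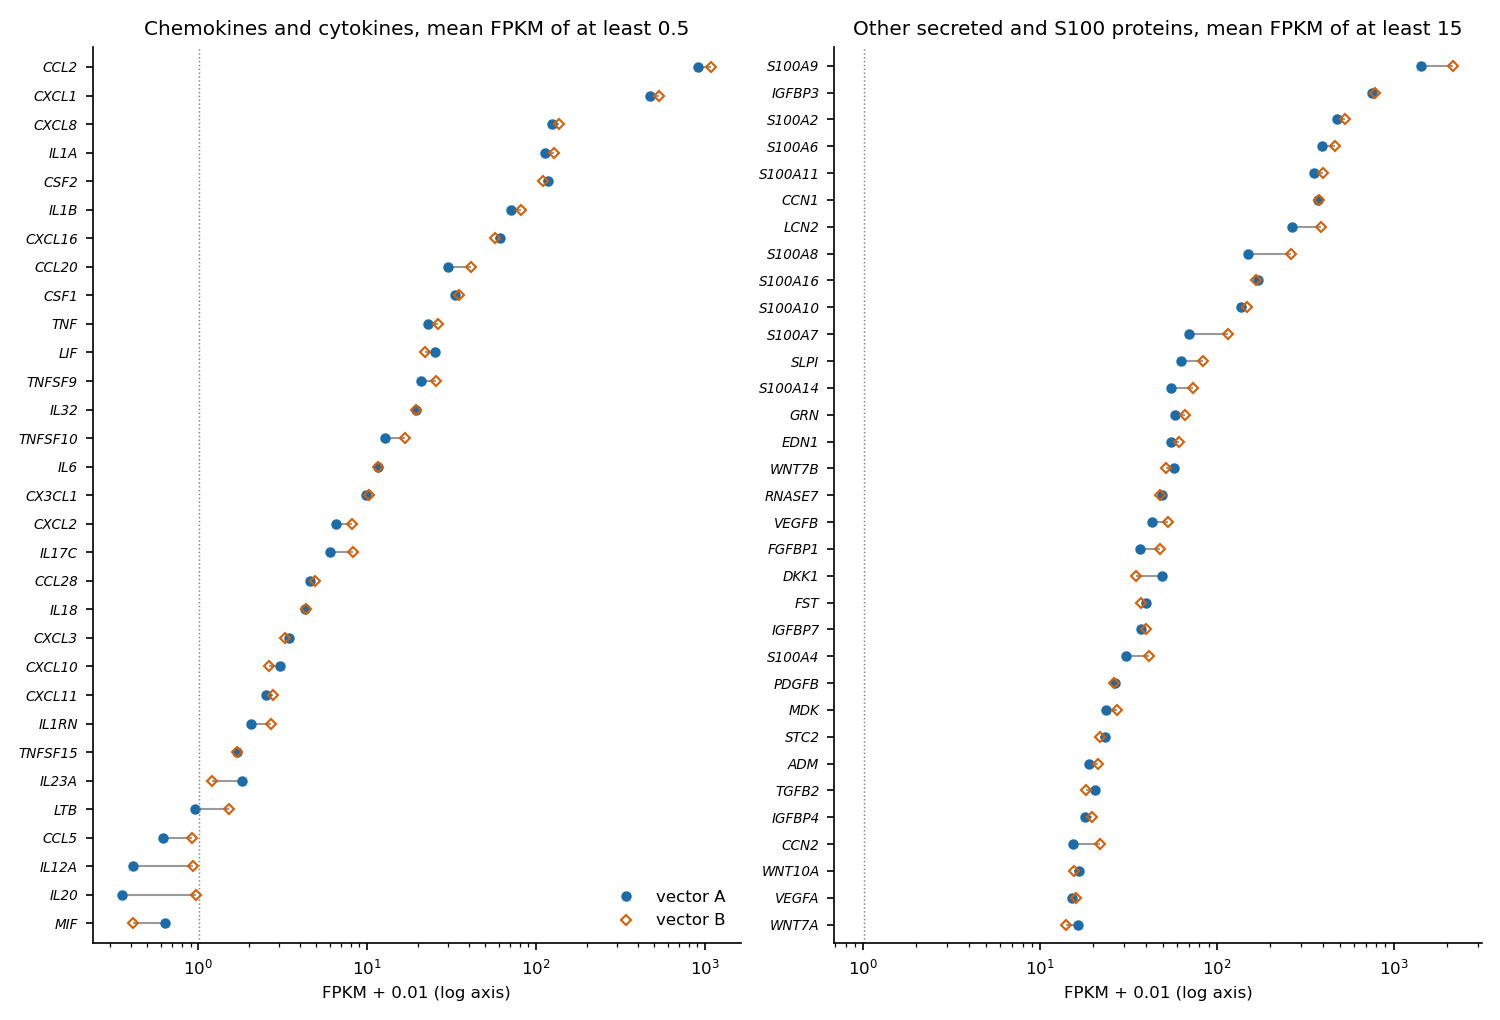
FPKM + 0.01 on log axes in vector A (filled circles) and vector B (open diamonds) for chemokines and cytokines with a mean of at least 0.5 FPKM (left), and for growth factors, IGF-binding proteins, S100 proteins and defence proteins with a mean of at least 15 FPKM (right). CCL2 lies apart at 912 and 1086 FPKM, and the widest bars on the right belong to S100A9, S100A8, LCN2 and S100A7, each higher in vector B.

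S100 proteins, small calcium binders whose genes mostly cluster on chromosome 1, were among the most abundant transcripts. Of 17 with a row 13 reached 1 FPKM, 11 reached 10 FPKM and 7 reached 100 FPKM (64.7% at 10 FPKM, against 25.9% of protein-coding genes). S100A9, a subunit of the antimicrobial calprotectin, had 1434 and 2154 FPKM and rank 7, the highest of all members of the gene lists apart from ACTB. Its partner S100A8 had 151 and 262 FPKM, so that S100A9 exceeded it 9.49-fold in A and 8.23-fold in B. S100A2, a target of TP63 in keratinocytes, had 478 and 534 FPKM, S100A6 392 and 469 FPKM and S100A11, a part of the envelope, 355 and 399 FPKM. S100A7, or psoriasin, had 70.2 and 116 FPKM. S100A9, S100A8 and S100A7 were all higher in B, by more than 1.5-fold, and with LCN2 they form the widest gaps in the plot of secreted factors.
The promoter of S100A9 is shown as that of the most abundant of these genes (RefSeq, GRCh38.p14, plus strand, chr1:153357604-153357853, 250 bases before the start). Capitals mark TATAAA, which starts 29 bases before the annotated start, and the other 3 motifs had no match in this window.
S100A9: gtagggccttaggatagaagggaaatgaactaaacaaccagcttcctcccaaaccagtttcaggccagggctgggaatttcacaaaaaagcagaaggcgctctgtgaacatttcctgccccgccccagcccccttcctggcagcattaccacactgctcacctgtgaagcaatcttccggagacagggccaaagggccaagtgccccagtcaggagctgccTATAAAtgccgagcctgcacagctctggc
TATAAA was held by 3 of the 11 S100 promoters of genes at 10 FPKM or more (27.3%), by 2 of the 4 of S100 genes with a mean below 1 FPKM and by 7.38% of all promoters.

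Other defence proteins were led by LCN2, a binder of bacterial siderophores, at 266 and 390.3 FPKM. SLPI, an inhibitor of neutrophil elastase, had 63.1 and 83.5 FPKM, and RNASE7, an antimicrobial ribonuclease of skin, 49.1 and 47.5 FPKM. Of the 9 genes of this list 5 reached 1 FPKM (55.6%, against 61.8% of protein-coding genes). The acute-phase protein SAA1 had 605 and 734 FPKM and rank 38, and C3, the central complement protein, 132 and 135 FPKM. Both were chosen after their values had been seen. SAA1 has a near-identical neighbour, SAA2, at 33.7 and 37.1 FPKM, and shared reads leave the split between them uncertain.

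Of 44 chosen growth factors and morphogens 35 reached 1 FPKM (79.5%, against 61.8% of protein-coding genes), a share that depends on that choice. CCN1, a matrix-bound protein of the immediate early response, was highest at 372 and 377 FPKM. EDN1, or endothelin 1, had 54.9 and 60.98 FPKM, WNT7B, a Wnt ligand of epithelia, 57.6 and 51.97 FPKM, and DKK1, a secreted Wnt inhibitor, 49.3 and 35.003 FPKM. FST, which traps activin, had 39.8 and 37.1 FPKM, above INHBA, the activin A subunit, at 14.7 and 11.97 FPKM. PDGFB, which acts on stromal cells, had 26.6 and 26.3 FPKM, and VEGFA, which acts on vessels, 15.1 and 15.97 FPKM. Among IGF-binding proteins 4 of 6 reached 1 FPKM (66.7%, near the 61.8%). IGFBP3, the main carrier of IGFs in blood, had 752 and 788 FPKM and rank 29, just above KRT14.

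Proteases of the pericellular space were unevenly represented. PLAU, the urokinase activator of plasminogen, had 132 and 138 FPKM and its receptor PLAUR 9.01 and 7.86 FPKM, so that PLAU exceeded the receptor 14.6-fold in A and 17.6-fold in B. Of 15 genes of the plasminogen system and serpins 8 reached 1 FPKM (53.3%, against 61.8% of protein-coding genes). SERPINB2, an inhibitor of urokinase, was at 0 in both libraries. MMP14, a membrane-bound metalloprotease, had 71.9 and 80.03 FPKM, 3.64-fold above its regulator TIMP2 in A and 3.63-fold in B. The secreted MMP1, MMP3, MMP9 and MMP10, often seen in invasive squamous tumours, lay at or below 0.042 FPKM in both libraries. Of 19 genes of metalloproteases and inhibitors 9 reached 1 FPKM (47.4%). KLK5, a kallikrein that cleaves desmosomes, had 36.9 and 39.6 FPKM. ST14, or matriptase, had 47.5 and 43.6 FPKM, beside its inhibitors SPINT1 at 60.95 and 66.7 FPKM and SPINT2 at 84.5 and 86.8 FPKM. Of 19 genes of kallikreins and membrane serine proteases 8 reached 1 FPKM (42.1%).

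Matrix genes reached 1 FPKM for 21 of 27 members (77.8%, against 61.8% of protein-coding genes). THBS1, an adhesive glycoprotein, had 412 and 315 FPKM, SPARC, a collagen-binding protein, 168 and 168 FPKM, and AGRN, a basement membrane proteoglycan, 113 and 109 FPKM. TNC, or tenascin C of wounds and tumour stroma, had 49.7 and 41.5 FPKM, and FN1, or fibronectin, 17.2 and 15.6 FPKM. Collagens of fibrous tissue were low, with COL1A1 at 1.61 and 1.85 FPKM and COL3A1 at 0.00608 and 0.114 FPKM (1 and 16 reads). Of 11 annexins and galectins 9 reached 1 FPKM (81.8%), with ANXA1, a phospholipid binder of squamous mucosa, at 176 and 188 FPKM and LGALS1, a galactoside binder, at 103 and 128 FPKM.

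Genes of growth control were nearly all present. Of 32 genes known as drivers or regulators of carcinoma 31 reached 1 FPKM (96.9%, against 61.8% of protein-coding genes). The exception, SMAD4, the common mediator of TGF-beta signals, had 0.609 and 0.653 FPKM. CCND1, a cyclin that acts in the G1 phase, had 66.6 and 47.9 FPKM and CDK4, its kinase, 68.2 and 64.7 FPKM. CTTN, the neighbour of CCND1 in a region of chromosome 11 often amplified in this cancer, had 62.3 and 62.2 FPKM. MYC had 44.3 and 39.5 FPKM and HRAS 55.6 and 56.5 FPKM. The tumour suppressor CDKN2A had 12.4 and 12.6 FPKM, and levels say nothing of mutations. All 16 proliferation genes reached 10 FPKM, PCNA, the sliding clamp of DNA replication, at 306 and 298 FPKM and MKI67 at 33.3 and 28.9 FPKM. All 15 genes that every cell uses reached 1 FPKM, the lowest being SDHA at 3.45 and 3.53 FPKM.

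MB21D2, the gene that the series introduced into the other lines, was also measured in the vector line. MB21D2 (ENSG00000180611, chromosome 3, 192796815 to 192918161) had 8.31 and 7.15 FPKM, from 615 and 452 reads, and rank 5294. Its relative CGAS, the sensor of cytosolic DNA, was higher at 17.9 and 16.2 FPKM, and MAB21L1 and MAB21L4, further members of the family, were lower at 0.274 and 0.368 FPKM (MAB21L1) and 1.09 and 0.891 FPKM (MAB21L4).

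Genes of other cell types were mostly near 0. The 16 lists of other lineages held 151 symbols, of which 89 had a row, and 12 of these reached 1 FPKM (13.5%, against 61.8% of protein-coding genes). The median of the 89 was 0.0453 FPKM, and 16 were at 0 in both libraries. The other 62 symbols had no row and enter neither the share nor the median. Whether they lacked reads in the whole series was not tested. In bulk RNA, few cells of a type and little RNA per cell cannot be told apart. Lymphocyte genes reached 1 FPKM for 0 of 6: PTPRC, the common leukocyte antigen CD45, and JCHAIN, of antibody-secreting cells, were at 0. Of T cell genes CD3E had 0.0437 and 0.0170 FPKM (3 and 1 reads) and CD8A 0.0228 and 0.0800 FPKM (2 and 6 reads). Among 6 myeloid genes CD14, a co-receptor for lipopolysaccharide, had 1.78 and 3.17 FPKM. CD163 had 0.00712 and 0 FPKM (1 and 0 reads) and CD33 0 and 0 FPKM. The 3 erythroid and platelet genes stayed below 1 FPKM, PF4 at 0.0686 and 0.241 FPKM being the highest.

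Vessel and stromal genes included 1 clear exception. CDH5, or VE-cadherin, the junction protein of endothelium, had 19.9 and 21.3 FPKM from 2921 and 2670 reads, while the 6 other endothelial genes lay at or below 0.163 FPKM. Among them PECAM1, the adhesion protein CD31, had 0.112 and 0.163 FPKM, VWF, the clotting factor of vessel walls, 0.0558 and 0.0746 FPKM, and KDR, the receptor of VEGF, 0.00631 and 0 FPKM. A fibroblast gene, COL1A1, was the only one of 9 to reach 1 FPKM, and DCN and PDGFRA, defining genes of fibroblasts, had 0 and 0 FPKM (DCN) and 0 and 0.00507 FPKM (PDGFRA). No muscle gene of 6 reached 1 FPKM. CALD1, an actin binder found in many cells, led 6 myoepithelial genes at 12.3 and 12.1 FPKM, and MYLK and OXTR also reached 1 FPKM at 2.52 and 2.25 FPKM (MYLK) and 1.37 and 1.04 FPKM (OXTR), whereas the smooth muscle genes ACTA2 and MYH11 had 0.557 and 0.830 FPKM (ACTA2) and 0.0234 and 0.0164 FPKM (MYH11).

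Glandular genes were examined because the labels call the tumour adenosquamous. Of 15 mucins and secretory genes 3 reached 1 FPKM: PIGR, the transporter of IgA, at 9.29 and 14.1 FPKM, MUC1, a mucin of most epithelia, at 5.24 and 6.55 FPKM, and AGR2, a chaperone of mucin-making cells, at 1.12 and 1.84 FPKM. The gel-forming mucins MUC5AC and MUC5B had 0.00237 and 0 FPKM (MUC5AC) and 0.00223 and 0 FPKM (MUC5B). Of 8 salivary genes with a row ZG16B and PIP, both secreted proteins of saliva, reached 1 FPKM at 2.22 and 3.07 FPKM (ZG16B) and 1.36 and 2.26 FPKM (PIP). LPO, the peroxidase of saliva, had 0.0515 and 0.0151 FPKM.

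Liver and neural genes had 1 exception each. SERPINA1, the antitrypsin of liver and blood, had 24.4 and 27.6 FPKM. ALB and APOA1, the defining secreted proteins of hepatocytes, had 0.0121 and 0 FPKM (ALB, 1 and 0 reads) and 0 and 0.0340 FPKM (APOA1, 0 and 1 reads). MBP, the myelin protein whose gene also makes other products outside the nervous system, had 3.35 and 3.07 FPKM, and SNAP25 and SYN1 of synapses were at 0. Of 6 kidney, thyroid and prostate genes 2 reached 1 FPKM, among them PAX8, a factor of kidney and thyroid, at 1.66 and 1.35 FPKM. No gene reached 1 FPKM among 3 neuroendocrine, 6 melanocyte, 4 intestinal, 6 lung and 2 germ cell and pluripotency genes, the nearest being POU5F1, which has several expressed pseudogenes, at 0.919 and 0.923 FPKM. CDH5 and SERPINA1, the exceptions above 20 FPKM on average, were measured in both libraries, and the defining genes of endothelium and liver beside them were near 0.

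**Figure D4:**
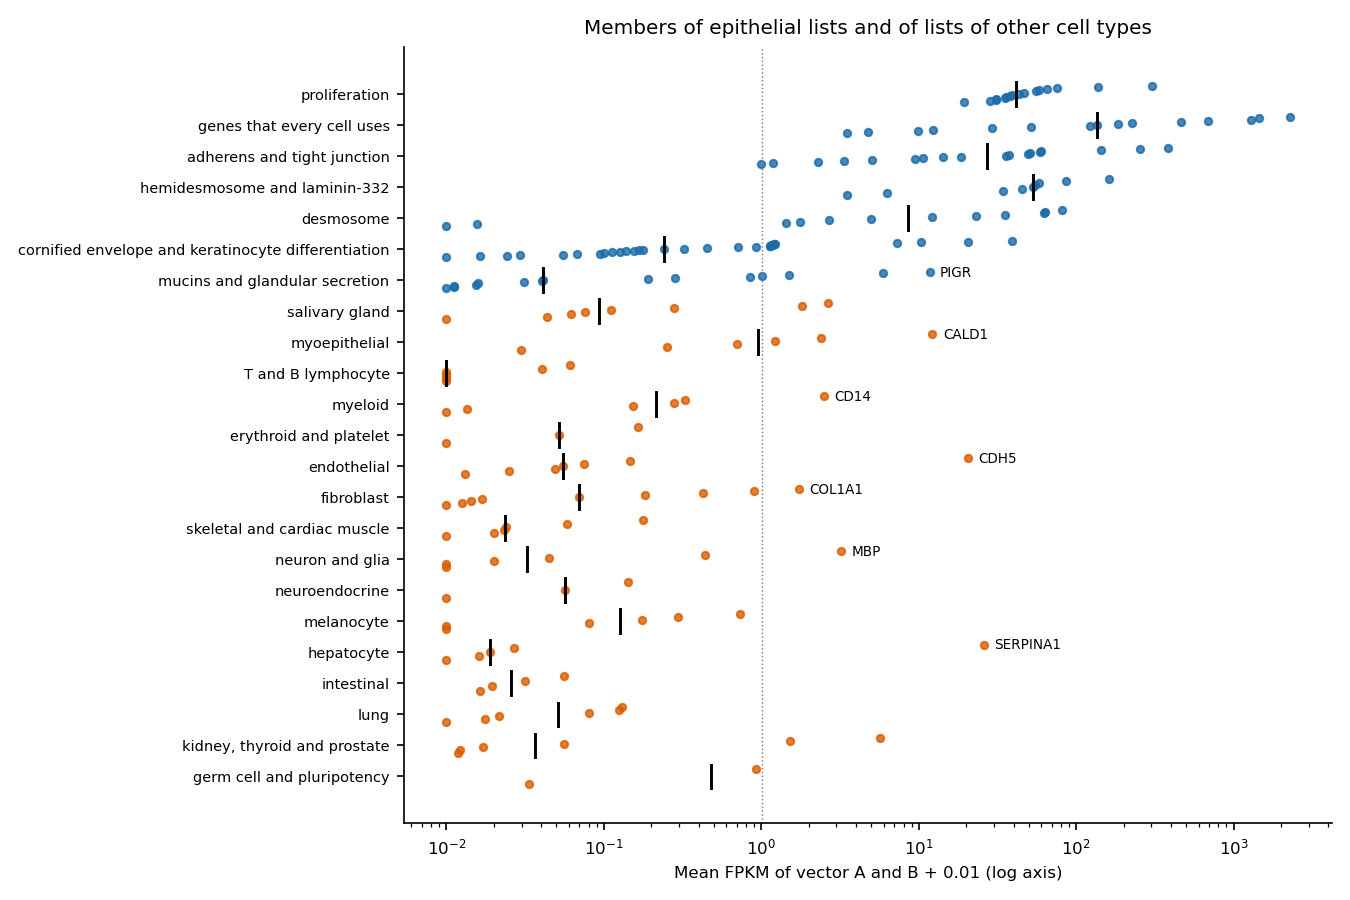
Mean FPKM over vector A and B + 0.01 on a log axis for members of epithelial and general lists (blue, above) and of 16 lists of other cell types (orange, below), 1 point per gene, with black bars at the medians and a dotted line at 1 FPKM. The medians of the proliferation, housekeeping, adherens and tight junction, and hemidesmosome lists lie above 10 FPKM. The desmosome median is 8.56 FPKM, that of the cornified envelope list 0.230 FPKM and that of the mucin list 0.0308 FPKM. Those of all 16 other lineages lie below 1 FPKM. The named points, such as CDH5 at 19.9 and 21.3 FPKM, are some of those above 1 FPKM.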

How the data were processed

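RNA sequencing was done on total RNA of CAL27 lines, and the 2 libraries of the empty vector line are described. Per the labels' protocols, extraction used QIAGEN material, and library preparation was Illumina's standard one. The deposited values are FPKM, made by the authors from read counts per gene. Per the submitters' processing notes CASAVA was used, with no version or role. The notes also list mouse builds, with no role, although the gene IDs are human. Which aligner, counter and annotation were used, and whether strand was, is not given in the sources used here.

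Symbols came from a table that named 29993 of 30178 IDs, and 30059 IDs were found in GENCODE 29 (GRCh38), which gave positions, types and exon lengths. Whole reads, within 0.001 of a read, were recovered for 30030 genes (99.51%) from FPKM, length and a library total. Each total was itself inferred, as the whole number at which most genes gave whole reads. The GENCODE length served for 22361 genes, and for 7669 a length was fitted within 0.25 to 4 times it. A multiple of the true length also gives whole reads, so a fitted length need not be the true one. Recovered reads summed to 24162244 in A and 20659343 in B, more than the inferred totals of 24147306 and 20645410. Some recovered counts may therefore be too high. Recovered reads gave exact Poisson 95% intervals, which cover counting error only, and a limit of 3 reads. With 2 libraries, SDs are imprecise. The recovery of reads was tested on simulated data, in which a smaller share of genes had a changed length than needed a fitted one here.

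Ranks are of the mean FPKM over both libraries. The 54 gene lists held 887 symbols, of which 759 had a row, and the others were not analysed here. Members and lists were chosen with earlier results of these data known. Named genes are the 20 highest genes, the 4 highest of each list, members at a mean of 100 FPKM or more, the markers and MB21D2, and members of regulator, receptor, ligand and lineage lists at 1 FPKM or more. The text prints a selection, some genes of the lists are counted but not reported here by name, and low members were added after their values were seen to show the other end of a list. Alternatives were other FPKM limits, TPM (FPKM rescaled to 1000000 per library), other pseudocounts, and either library alone. Promoter and microRNA sequences are from RefSeq (GRCh38.p14). Calculations used Python 3.11.15, numpy 2.4.6, pandas 2.3.3 and scipy 1.17.1, and figures matplotlib 3.10.9.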

Additional observations from a re-analysis of the deposited data

How the results depend on the processing

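Of 337 alternative values over 69 results, 296 stayed within the limits set for a count, a share or a level, and 41 moved. Leaving out either library kept every leading count within those limits. For marker levels and the keratin share the limit was the SD of A and B themselves. Either library alone always lies within that SD. These values are part of the 296 but could not have moved, so they say nothing about stability. As TPM the marker levels were 1956 for KRT5, 2700 for KRT14 (2699.6), 111 for TP63 and 261 for EGFR, larger by construction, since each library then sums to 1000000. The 7 of 29 cornified envelope genes became 11 at 0.5 FPKM, 4 at 2 FPKM and 13 at 1 TPM. The 12 of 89 genes of other lineages became 7 at 2 FPKM and 20 at 1 TPM. The spread between the libraries, 0.20 on the log2 scale, was 0.31 with a pseudocount of 0.1, 0.16 for genes with a mean of at least 5 FPKM and 0.43 as TPM. The keratin share of the FPKM total, 0.767%, was 0.827% without mitochondrially encoded genes in the total. The ratio of type I over type II keratins, 1.00, was 0.537 by recovered reads and 0.303 without keratins of fitted length, alternatives chosen after seeing the data. Where construction does not give the reason, the cause was not tested. Of 250 alternative values for the other lists, 20 moved, all of them counts.

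No paired analysis was possible because 1 group was described and no test was made. Genes under 3 reads are below what these depths resolve, which is 0.0577 FPKM in A and 0.0675 FPKM in B for IVL and lower for longer genes.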

Other observations

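Some abundant transcripts of the vector line belong to none of the gene lists and were picked after their values had been seen. HMGA1, a chromatin protein of embryonic and tumour cells, had 728 and 694 FPKM and rank 34, beside KRT14. SFN, the 14-3-3 sigma protein of stratified epithelium, had 383 and 356 FPKM and rank 92. FOSL1, an AP-1 subunit often raised in squamous carcinoma, had 132 and 106 FPKM, and CEBPB, a factor that acts on inflammatory genes, had 92.5 and 112 FPKM. NFKBIA, the inhibitor that NF-kappaB itself induces, had 124 and 137 FPKM. TMSB10, an actin-binding thymosin, had 1551 and 1825 FPKM and rank 8. HSP90AB1, a constitutive chaperone, had 1219 and 1149 FPKM and rank 15. FTL, the light chain of ferritin, had 1081 and 1192 FPKM.

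Genes outside the epithelial program were present at clear levels too. HORMAD2, a protein of meiotic chromosomes, had 12.3 and 12.6 FPKM, from 763 and 670 reads, and rank 3758. Among interferon-induced genes BST2, which tethers viruses to the cell surface, had 310.6 and 345 FPKM and ISG15, a ubiquitin-like protein, 96.3 and 103 FPKM. MT2A, a metal-binding metallothionein, had 653 and 662 FPKM and belongs to a family of close copies. LINC00958, a long noncoding RNA, had 18.2 and 15.1 FPKM. Some genes thought of as common were low: INSR, the insulin receptor, had 0.0191 and 0.0134 FPKM, FGFR1, a fibroblast growth factor receptor, 0.0239 and 0.00700 FPKM, and MIF, a widely made cytokine, 0.624 and 0.398 FPKM.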
